A study of Mus musculus with 22 samples.

Results

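Proteobacteria are the phylum of Gram-negative bacteria that holds Escherichia coli, the sulfur-reducing Desulfovibrio and many gut and environmental species. Here they comprised 11 of the 72 rows of 2 tables of bacterial taxa from mice, chosen because Proteobacteria was the second rank of the row's lineage. Of the 40 lung rows 6 were Proteobacteria, and of the 32 colon rows 5 were. The 11 rows carried 8 distinct names. RF32, Sutterella and Desulfovibrio were listed in both tables, Bilophila, E. coli and Haererehalobacter salaria in lung only, and Desulfovibrio C21 c20 and a Desulfovibrionaceae row with no genus in colon only.

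The tables came from a mouse model of allergic asthma, in which chicken ovalbumin (OVA) serves as the allergen, and from its treatment with resveratrol (RES), a plant polyphenol. Bacterial 16S ribosomal RNA genes were amplified from lung tissue of 3 Ova-res, 3 Ova-veh and 3 naive mice, and from the flushed colon contents of 4 Ova-res, 4 Ova-veh and 5 naive mice. All were female BALB/c mice of 6 to 8 weeks. Ova-res and Ova-veh mice were sensitized intraperitoneally with 250 µg OVA in alum on day 0 and received 50 µg OVA intranasally on day 7. From day 1 to day 14 Ova-res mice were gavaged each day with RES at 100 mg/kg in carboxymethyl cellulose, and Ova-veh mice with carboxymethyl cellulose only. The labels attach the same protocol to every sample and give no separate treatment for naive mice. The groups were kept in isolated cages, so cage and treatment cannot be told apart. The comparisons ask whether OVA with vehicle, or RES on top of OVA, moved the Proteobacteria of either site.

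Proteobacteria are usually a minor phylum of the healthy mouse colon, where Bacteroidetes and Firmicutes prevail, and their expansion is a common sign of a disturbed gut community. Their outer membrane carries lipopolysaccharide (LPS), and the LPS of Enterobacteriaceae such as E. coli is a strong ligand of the innate receptor TLR4. Desulfovibrio and Bilophila, of the family Desulfovibrionaceae, are strict anaerobes that reduce sulfur compounds to hydrogen sulfide. Sutterella, of the Betaproteobacteria, is a commensal of the intestinal mucosa that lives under low oxygen.

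Every value below is a relative abundance, the percent of a mouse's 16S reads assigned to a row. A lower share cannot be told apart from a gain of other bacteria, since shares sum to a whole. The deposited fractions moved in steps of 0.1% of reads, so a listed 0 may stand for any share under 0.05%, and rounding alone may shift the sum of a mouse by up to 0.3 percentage points in lung (6 rows) and 0.25 in colon (5 rows). The listed taxa held 96.2 to 97.3% of the reads of the 9 lung samples and 96.9 to 99% of the 13 colon samples. The depth of each sample is unknown, because no read numbers were given in the sources at hand. No extraction blank was analysed here. Each sample was taken as 1 mouse, and the labels do not say whether lung and colon samples of the same number came from one animal. In colon, 2 Ova-veh mice stood apart from the rest by their main phyla: replicates 2 and 4 had 42.1 and 29.8% Bacteroidetes, against 72.6 and 69.3% in Ova-veh replicates 1 and 3, and the colon sum, its Deltaproteobacteria and Sutterella are given with and without them.

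In lung, Proteobacteria were the fourth of 8 phyla by mean share, and no contrast between groups passed the test. Their sum was 2.3, 2.2 and 2.4% in the 3 Ova-res mice, 2.4, 2.8 and 2.4% in the 3 Ova-veh mice and 2.3, 2.7 and 2.5% in the 3 naive mice. The groups overlapped, and the highest sum was in an Ova-veh mouse. Ova-res lungs averaged 2.3% ± 0.1, Ova-veh lungs 2.53% ± 0.231 and naive lungs 2.5% ± 0.2 (SD, n = 3 each). The Ova-res mean was 0.908 times that of Ova-veh, a difference of -0.233 percentage points (two-sided exact permutation p = 0.3, Benjamini-Hochberg adjusted p = 0.64 over 8 phyla). Against naive the Ova-res difference was -0.2 points (exact permutation p = 0.3, adjusted p = 0.64), and Ova-veh and naive differed by 0.0333 points (exact permutation p = 1). With 3 mice against 3 the smallest p such a test can give is 0.1, so none of these could have passed 0.05. An exact permutation of the F ratio over the 3 groups gave p = 0.364 (adjusted p = 0.416).

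**Figure D1:**
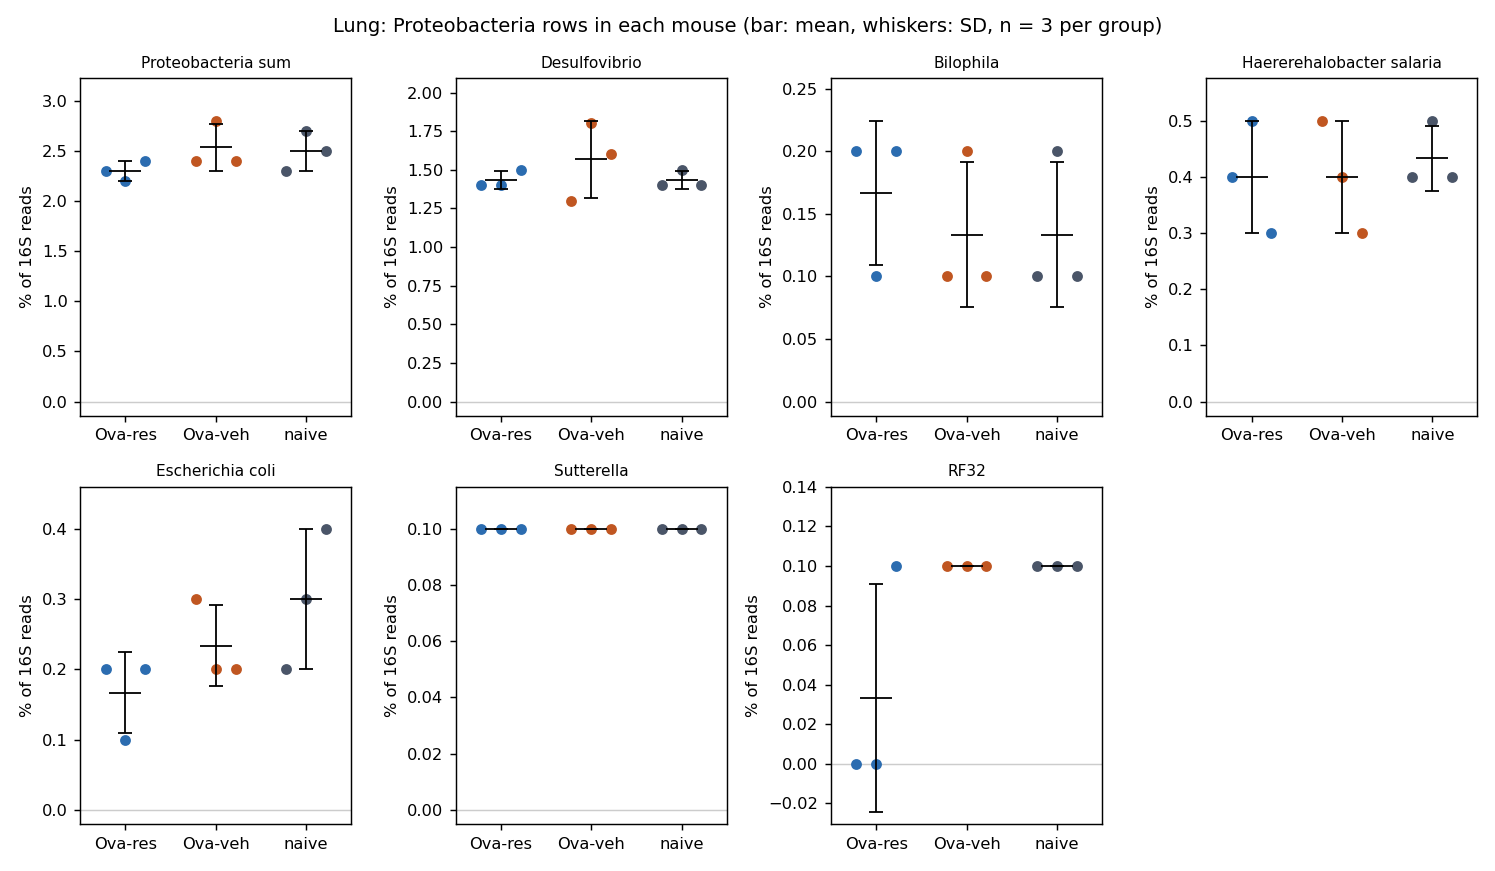
Percent of 16S reads (y axis, linear, each panel on its own scale) for the Proteobacteria sum and its 6 rows in lung, by group (x axis). Points are mice, the horizontal bar is the mean and the whiskers are the SD (n = 3 per group). Desulfovibrio made up most of every sum, and RF32 was listed at 0 only in 2 Ova-res mice.

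Deltaproteobacteria, the sulfur reducers, made up the largest class of lung Proteobacteria. Desulfovibrio alone held 54.2 to 66.7% of the Proteobacteria reads of a mouse and was the leading row in all 9 mice. It stood at 1.4, 1.4 and 1.5% of all reads in Ova-res mice, 1.3, 1.8 and 1.6% in Ova-veh mice and 1.4, 1.5 and 1.4% in naive mice. The Ova-veh mice held both the lowest and the highest value, and the Ova-res and naive means were equal. On the log2(percent + 0.05) scale the Ova-res against Ova-veh change was -0.11 (standard error 0.11, 95% interval -0.37 to 0.15, limma adjusted p = 0.677 over 40 taxa). Bilophila, which grows on taurine released from bile salts, stood at 0.2, 0.1 and 0.2% in Ova-res mice, 0.1, 0.2 and 0.1% in Ova-veh mice and 0.1, 0.2 and 0.1% in naive mice. Its values thus lay at most 1 rounding step apart in all 3 groups. The 2 genera summed to 1.6% ± 0.1 in Ova-res lungs, 1.7% ± 0.3 in Ova-veh lungs and 1.57% ± 0.115 in naive lungs (SD, n = 3 each). The Ova-res against Ova-veh difference of that sum was -0.1 points (exact permutation p = 0.8, adjusted p = 1 over 13 classes).

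Gammaproteobacteria came second in lung, with 2 rows that were not listed in colon. E. coli, a facultative anaerobe of the gut, stood at 0.2, 0.1 and 0.2% in Ova-res mice, 0.3, 0.2 and 0.2% in Ova-veh mice and 0.2, 0.3 and 0.4% in naive mice. The mean was lowest in Ova-res (0.167% ± 0.0577), next in Ova-veh (0.233% ± 0.0577) and highest in naive lungs (0.3% ± 0.1). Each of the 3 groups held a value of 0.2%, so all of them overlapped. The log2 change of E. coli was -0.41 for Ova-res against Ova-veh (standard error 0.296, limma adjusted p = 0.677) and -0.69 for Ova-res against naive (95% interval -1.40 to 0.02, limma adjusted p = 0.555). For Ova-veh against naive it was -0.28 (limma adjusted p = 0.946). H. salaria, of the salt-loving family Halomonadaceae, was the second most abundant Proteobacteria row of the lung. It stood at 0.4, 0.5 and 0.3% in Ova-res mice, 0.5, 0.4 and 0.3% in Ova-veh mice and 0.4, 0.5 and 0.4% in naive mice, with equal means in Ova-res and Ova-veh. The 2 rows together averaged 0.567% ± 0.0577 in Ova-res lungs, 0.633% ± 0.153 in Ova-veh lungs and 0.733% ± 0.115 in naive lungs (SD, n = 3 each). The Ova-res against naive difference of the class was -0.167 points (exact permutation p = 0.3, adjusted p = 0.867).

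The other 2 lung rows lay at the resolution of the table. Sutterella was listed at 0.1% in all 9 mice. RF32, an order of Alphaproteobacteria known mainly from sequence surveys of animal guts, was listed at 0, 0 and 0.1% in Ova-res mice and at 0.1% in each of the 3 Ova-veh and 3 naive mice. Its log2 change was -1.06 against either group (standard error 0.408), with a limma p of 0.0372 before adjustment (limma adjusted p = 0.496 against Ova-veh and 0.555 against naive), and no other Proteobacteria row of the lung was under 0.05 before adjustment. The exact permutation test of its percent gave p = 0.4 in both contrasts. The difference is 1 rounding step in 2 mice. Without Ova-res replicate 3 the log2 change was -1.58 and limma called the row against both groups (adjusted p = 7.18e-09), since no spread was then left after rounding, while its exact permutation test gave 0.1, which no split of 2 and 3 mice can go below.

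Over the lung table, limma called none of the 40 taxa in any of the 3 contrasts (0%), and hence 0 of the 6 Proteobacteria rows. At an unadjusted p under 0.05 limma found 3 taxa for Ova-res against Ova-veh, 1 for Ova-veh against naive and 2 for Ova-res against naive, of which 1, 0 and 1 were Proteobacteria (RF32 each time). The exact permutation test found 0 in each, which was fixed in advance, since 3 mice against 3 cannot give a p under 0.1. The mice of 2 groups did not overlap for 5% of the 40 taxa in each contrast and for 0 of the 6 Proteobacteria rows. For Ova-res against Ova-veh the mean was higher in 1 row, lower in 3 and equal in 2, with a median log2 change of -0.06 over the 6 rows and 0.01 over all 40 taxa. For Ova-veh against naive the median was 0 in both. For Ova-res against naive it was -0.06 over the 6 rows and 0.00 over all taxa.

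In colon, Proteobacteria were the fourth of 6 phyla, with a more variable sum than in lung and a narrow range in Ova-res mice. The sum was 0.9, 0.9, 1.1 and 1.0% in Ova-res mice, 0.7, 1.1, 0.6 and 0.2% in Ova-veh mice and 1.1, 0.5, 0.3, 0.8 and 0.5% in naive mice. All 4 Ova-res mice lay above the means of both other groups, but 1 Ova-veh mouse and 1 naive mouse reached the highest Ova-res value. Ova-res colons averaged 0.975% ± 0.0957 and Ova-veh colons 0.65% ± 0.370 (SD, n = 4 each), while naive colons averaged 0.64% ± 0.313 (SD, n = 5). The Ova-res mean was 1.5 times that of Ova-veh, a difference of 0.325 points (exact permutation p = 0.171, adjusted p = 0.446 over 6 phyla). It was 1.52 times that of naive, a difference of 0.335 points (exact permutation p = 0.111, adjusted p = 0.167). Ova-veh and naive differed by 0.01 points (exact permutation p = 1). Without Ova-veh replicates 2 and 4 the Ova-veh mean was still 0.65% and the difference 0.325 points (p = 0.0667 by exact permutation, which cannot go lower with 4 and 2 mice). The exact permutation of the F ratio over the 3 groups gave p = 0.217 (adjusted p = 0.327). The smallest p was 0.0286 for 4 mice against 4 and 0.00794 for 4 against 5, so a p under 0.05 was within reach before adjustment.

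**Figure D2:**
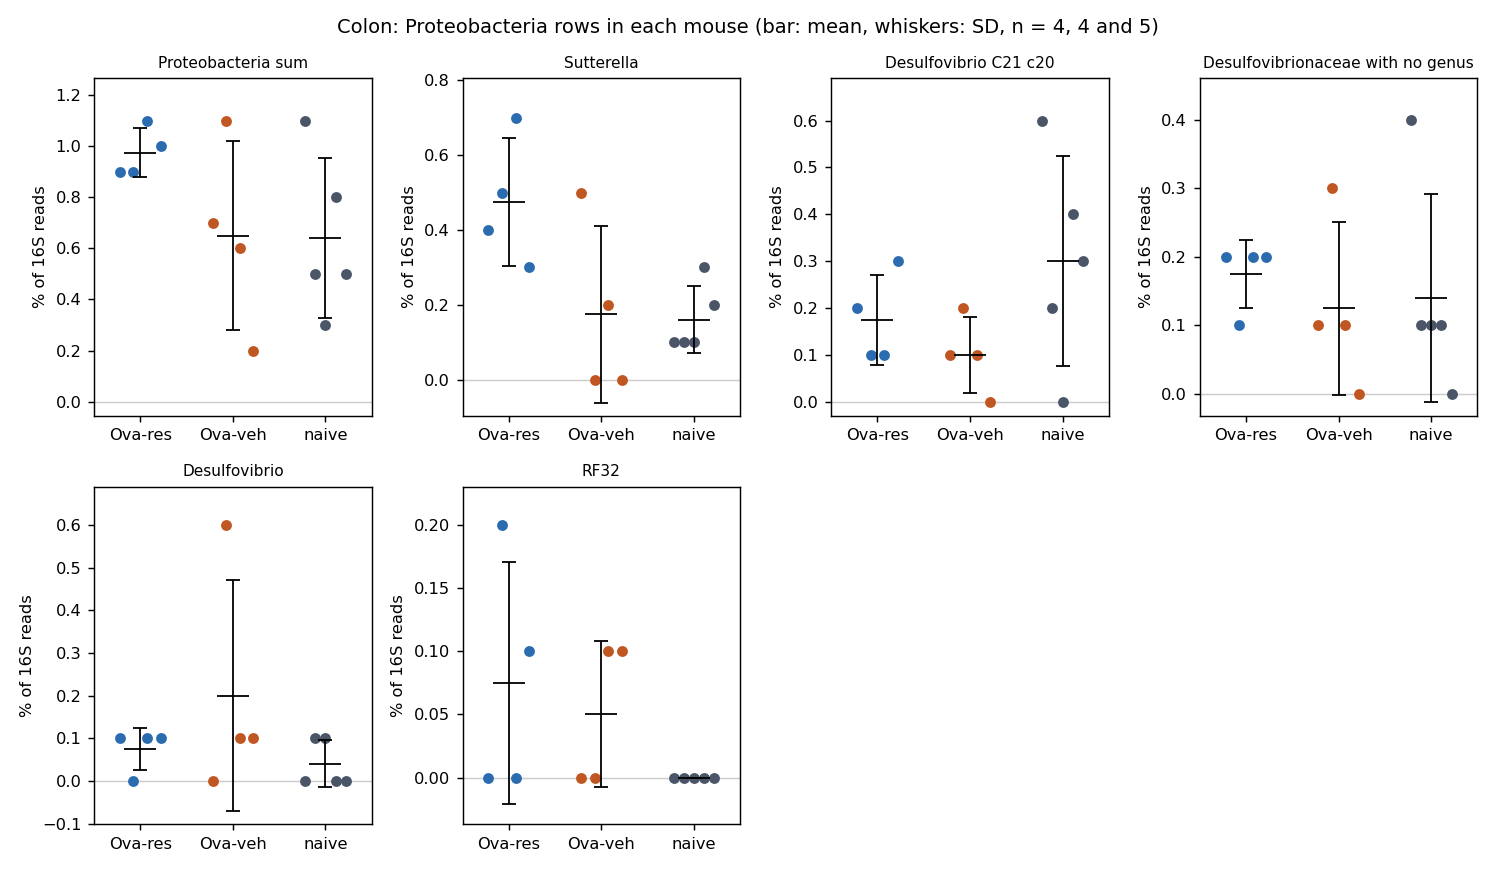
Percent of 16S reads (y axis, linear, each panel on its own scale) for the Proteobacteria sum and its 5 rows in colon contents, by group (x axis). Points are mice, the horizontal bar is the mean and the whiskers are the SD (n = 4 Ova-res, 4 Ova-veh and 5 naive), and whiskers that pass below 0 come from an SD larger than the mean. Sutterella was highest on average in Ova-res, and RF32 was listed at 0 in all 5 naive mice.

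Sutterella accounted for 0.3 of the 0.325 points between the Ova-res and Ova-veh sums, and for 0.315 of the 0.335 points between the Ova-res and naive sums. It stood at 0.4, 0.5, 0.7 and 0.3% in Ova-res mice, 0.5, 0, 0.2 and 0% in Ova-veh mice and 0.1, 0.1, 0.1, 0.3 and 0.2% in naive mice. All 4 Ova-res mice lay above the mean of either other group, and their range overlapped with Ova-veh replicate 1 and naive replicate 4. The mean was 0.475% ± 0.171 in Ova-res and 0.175% ± 0.236 in Ova-veh mice (ratio 2.71, exact permutation p = 0.143, adjusted p = 0.762 over 32 taxa). On the log2 scale the change was 1.89 (standard error 0.685, 95% interval 0.44 to 3.34), which had an unadjusted limma p of 0.0136 and an adjusted p of 0.218. Against the naive mean of 0.16% ± 0.0894 the ratio was 2.97 (exact permutation p = 0.0238, adjusted p = 0.152) and the log2 change 1.36 (95% interval -0.01 to 2.73, limma adjusted p = 0.426). For Ova-veh against naive the log2 change was -0.53 (limma adjusted p = 0.8) while the means differed by 0.015 points the other way, so no direction is given.

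The 2 Ova-veh mice listed at 0 for Sutterella were replicates 2 and 4, those with the lowest Bacteroidetes. Without them Ova-veh Sutterella averaged 0.35%, and the Ova-res against Ova-veh difference was 0.125 points, against 0.3 points with them (exact permutation p = 0.533). Sutterella then accounted for 0.125 of the 0.325 points between the Ova-res and Ova-veh sums, less than the 0.175 points of the Deltaproteobacteria. The Ova-veh against naive difference of Sutterella was then 0.19 points (0.35 against 0.16%, exact permutation p = 0.143), against 0.015 points with all mice. When the one vehicle mouse at 0.5%, Ova-veh replicate 1, was left out, the log2 change was 2.56 and limma called Sutterella (adjusted p = 0.0222), but exact permutation gave 0.0571. Over all mice left out in turn its log2 change ranged from 1.41 to 2.56 for Ova-res against Ova-veh and from 1.17 to 1.57 for Ova-res against naive, with the same sign throughout.

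The 3 Desulfovibrionaceae rows of the colon did not move together, and their sum was equal in Ova-res and Ova-veh. Desulfovibrio C21 c20, an unnamed lineage of the genus, stood at 0.2, 0.1, 0.1 and 0.3% in Ova-res mice, 0.1, 0.2, 0.1 and 0% in Ova-veh mice and 0.6, 0.2, 0, 0.4 and 0.3% in naive mice. It had its highest mean in naive mice, though naive replicate 3 was listed at 0. The Ova-veh mean of 0.1% was 0.333 times the naive mean of 0.3% (exact permutation p = 0.19, log2 change -1.03, standard error 0.675, limma adjusted p = 0.569). The Ova-res mean of 0.175% was 1.75 times that of Ova-veh (exact permutation p = 0.486, log2 change 0.70, limma adjusted p = 0.57) and 0.583 times that of naive (exact permutation p = 0.397).

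The row named only Desulfovibrio stood at 0.1, 0, 0.1 and 0.1% in Ova-res mice, 0, 0.6, 0.1 and 0.1% in Ova-veh mice and 0, 0.1, 0.1, 0 and 0% in naive mice. Ova-veh replicate 2 held the one value above 0.1%. The Ova-veh mean was thereby 5 times that of naive (0.2 against 0.04%, exact permutation p = 0.23), and the log2 change of 1.08 (limma adjusted p = 0.569) was 0.42 with that mouse left out. For Ova-res against Ova-veh the change was -0.53 (limma adjusted p = 0.615), and 0.13 once Ova-veh replicate 2 was left out. The Desulfovibrionaceae row with no genus stood at 0.2, 0.1, 0.2 and 0.2% in Ova-res mice, 0.1, 0.3, 0.1 and 0% in Ova-veh mice and 0.4, 0.1, 0.1, 0.1 and 0% in naive mice. Its group means of 0.175, 0.125 and 0.14% lay within the SD of Ova-veh (0.126) and of naive (0.152).

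The 3 rows summed to 0.5, 0.2, 0.4 and 0.6% in Ova-res mice, 0.2, 1.1, 0.3 and 0.1% in Ova-veh mice and 1.0, 0.4, 0.2, 0.5 and 0.3% in naive mice. Ova-res and Ova-veh colons averaged 0.425% ± 0.171 and 0.425% ± 0.457 (SD, n = 4 each), and naive colons 0.48% ± 0.311 (SD, n = 5), so that the Ova-veh spread was larger than its mean. No contrast of this sum passed (exact permutation p = 1, 0.794 and 0.857 for Ova-res against Ova-veh, Ova-veh against naive and Ova-res against naive). Without Ova-veh replicates 2 and 4 the Ova-veh mean was 0.25% (exact permutation p = 0.333 for Ova-res against Ova-veh), and the Ova-veh against naive difference was -0.23 points, against -0.055 points with all mice (exact permutation p = 0.524). RF32 was listed at 0, 0.2, 0 and 0.1% in Ova-res mice, 0, 0, 0.1 and 0.1% in Ova-veh mice and at 0 in all 5 naive mice. It was above 0 in 2 of 4 Ova-res and 2 of 4 Ova-veh mice, and either group set against naive gave 0.167 by exact permutation, with no fold given against a group listed at 0.

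Over the colon table limma called 0 of 32 taxa in each contrast (0%), and 0 of the 5 Proteobacteria rows. At an unadjusted p under 0.05 limma found 3 taxa for Ova-res against Ova-veh, 2 for Ova-veh against naive and 2 for Ova-res against naive, among which Sutterella, in the first contrast, was the one Proteobacteria row. The exact permutation test found 1, 2 and 8 taxa at that level and none after adjustment, and Sutterella, in Ova-res against naive, was again the one Proteobacteria row. For Ova-res against Ova-veh its smallest p was 0.0286, so adjustment over 32 taxa could be passed only if many taxa reached that value. The mice did not overlap for 3.12% of the taxa in Ova-res against Ova-veh, 0% in Ova-veh against naive and 6.25% in Ova-res against naive, and for 0 of the 5 Proteobacteria rows in each. For Ova-res against Ova-veh the mean was higher in 4 rows and lower in 1, with a median log2 change of 0.64 over the 5 rows and -0.01 over the 32 taxa. For Ova-res against naive it was higher in 4 and lower in 1 (medians 0.55 and -0.09). For Ova-veh against naive it was higher in 3 and lower in 2 (medians -0.09 and -0.06).

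**Figure D3:**
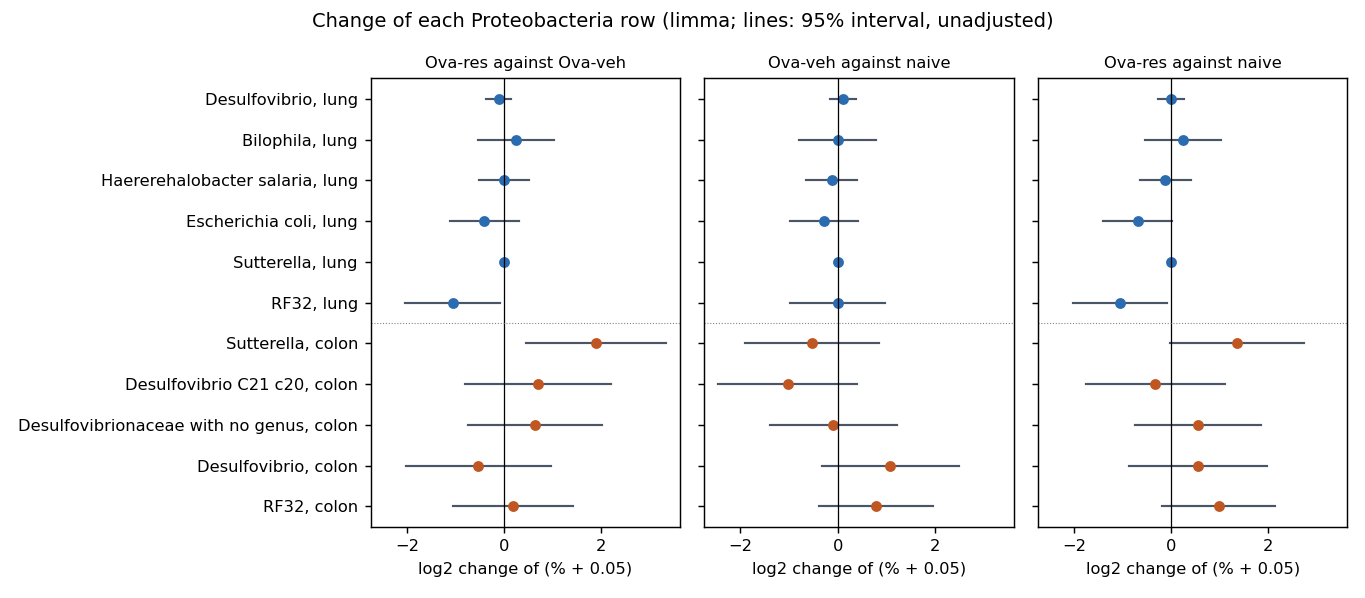
Change of each Proteobacteria row on the log2(percent + 0.05) scale (x axis) in 3 contrasts (panels), lung rows above the dotted line and colon rows below it. Points are limma estimates and lines their unadjusted 95% intervals; lung Sutterella, equal in all mice, sits at 0. The intervals of lung RF32 and colon Sutterella leave out 0 for Ova-res against Ova-veh, and neither passed after adjustment.

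The make-up of the Proteobacteria reads differed between mice more in colon than in lung. A rounding step of 0.1% is a larger part of the colon sums (0.2 to 1.1%) than of the lung sums (2.2 to 2.8%). How far rounding adds to the colon differences was not tested. In lung the leading row was the same in all 9 mice, with Desulfovibrio at 62.3% ± 1.39 of the Proteobacteria reads in Ova-res lungs, 61.7% ± 6.64 in Ova-veh lungs and 57.5% ± 2.95 in naive lungs (SD, n = 3 each). In colon Sutterella led in 3 of 4 Ova-res mice and tied with Desulfovibrio C21 c20 in the other one. It led in 2 of 4 Ova-veh mice, where Desulfovibrio led replicate 2 and tied with RF32 in replicate 4. In naive mice Desulfovibrio C21 c20 led in 4 of 5, with a tie of 3 rows in replicate 3. Sutterella made up 48.4% ± 14.6 of the colon Proteobacteria reads in Ova-res colons, 26.2% ± 34.0 in Ova-veh colons and 28.0% ± 13.1 in naive colons (SD, n = 4, 4 and 5). Deltaproteobacteria made up 43.5% ± 17.5 of them in Ova-res colons, 57.1% ± 30.3 in Ova-veh colons and 72.0% ± 13.1 in naive colons. The order of Ova-res and Ova-veh turned without Ova-veh replicates 2 and 4, since the Ova-veh share was then 52.4% for Sutterella and 39.3% for Deltaproteobacteria (n = 2). These shares are descriptions and were not tested.

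Equal sums held different bacteria. Ova-res replicate 3, Ova-veh replicate 2 and naive replicate 1 had the same colon sum of 1.1%. In Ova-res replicate 3 Sutterella was 63.6% of it, in Ova-veh replicate 2 Deltaproteobacteria were 100% of it, and in naive replicate 1 Deltaproteobacteria were 90.9% of it.

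**Figure D4:**
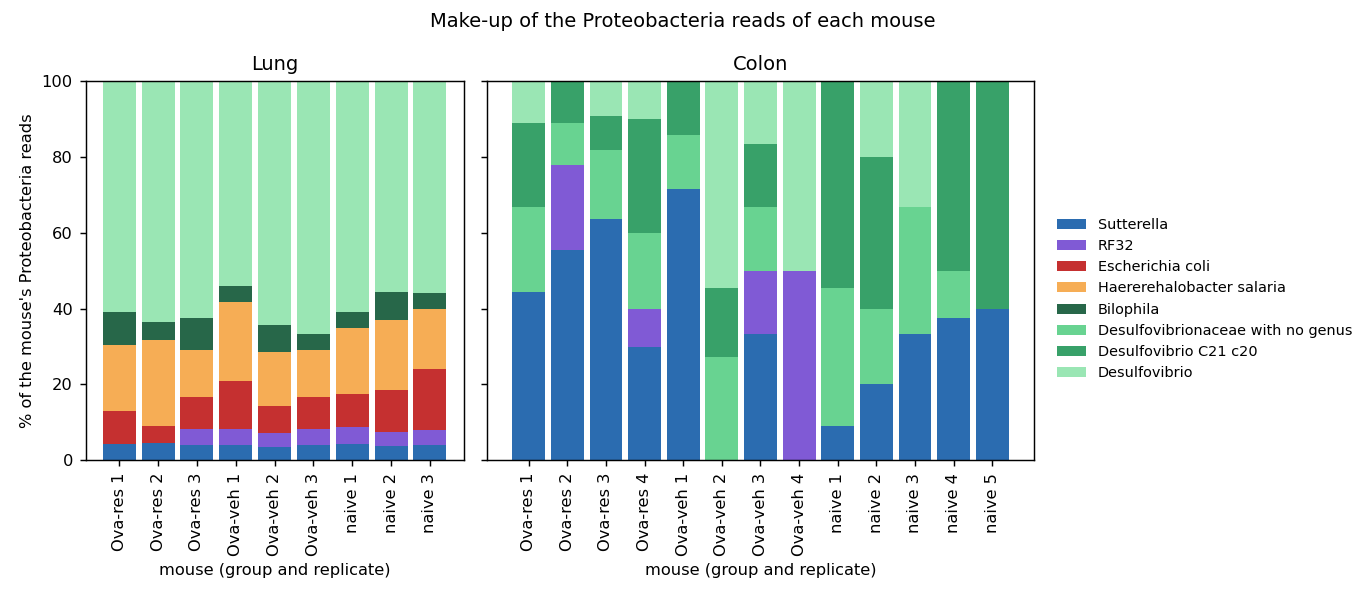
Percent of each mouse's Proteobacteria reads (y axis, stacked to 100) held by each row, with 1 bar per mouse (x axis: group and replicate) in lung (left) and colon (right). Greens are Desulfovibrionaceae. Desulfovibrio leads all 9 lung bars, while in colon Sutterella leads 3 of 4 Ova-res bars and Desulfovibrio C21 c20 leads 4 of 5 naive bars.

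Across the 13 colon mice the 4 rows above 0 in at least 7 mice gave 6 pairs, and 0 of them passed after adjustment. The groups were pooled, so differences between group means enter every correlation. The highest correlation was between the Desulfovibrionaceae row with no genus and Desulfovibrio C21 c20 (Pearson r = 0.571, permutation p = 0.0534, adjusted p = 0.32; Spearman rho = 0.408, permutation p = 0.167, adjusted p = 0.495; n = 13). Without Ova-veh replicate 2 and naive replicate 1 its r was 0.151. As centred log ratios r was 0.447 (permutation p = 0.125), and 0.576 without naive replicates 1 and 5, so its size changed with the scale and with 2 mice. Other pairs moved as far when 2 mice were left out, such as the row with no genus and Sutterella (r = -0.02 with all mice and 0.612 without Ova-veh replicate 2 and naive replicate 1) and Desulfovibrio and C21 c20 (r = -0.157 and -0.616 without Ova-res replicate 2 and Ova-veh replicate 2). The lowest was between Desulfovibrio and Sutterella (r = -0.394, permutation p = 0.179, adjusted p = 0.433; rho = -0.4, permutation p = 0.175, adjusted p = 0.495), and r was -0.04 without Ova-res replicate 2 and Ova-veh replicate 2.

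Lung and colon were processed with different extraction kits and deposited as separate tables, so their levels are set side by side with no test. Proteobacteria averaged 2.44% in the 9 lungs (2.2 to 2.8%) and 0.746% in the 13 colons (0.2 to 1.1%), and every lung value was above every colon value. The coefficient of variation over all mice was 7.95% in lung and 41.2% in colon. Desulfovibrio averaged 1.48% in lung and 0.1% in colon, where C21 c20 and the row with no genus were listed apart, and the Deltaproteobacteria sum averaged 1.62% in lung and 0.446% in colon. RF32 averaged 0.0778% in lung and 0.0385% in colon. Sutterella ran the other way, with 0.1% in lung and 0.262% in colon. A row listed in 1 table is not shown to be absent from the other, since the least share that a table lists was not given.

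Whether a contrast differed between the sites was tested on ratios of means, which need no common scale. For Ova-res against Ova-veh the log2 ratio of the Proteobacteria sums was -0.14 in lung and 0.58 in colon, a difference of -0.72 (exact permutation of labels within each site, p = 0.0571, adjusted p = 0.0857 over 3 contrasts). For Ova-res against naive the ratios were -0.12 and 0.61, a difference of -0.73 (exact permutation p = 0.0532, adjusted p = 0.0857). For Ova-veh against naive the difference was 0.00 (exact permutation p = 1). The first difference was -1.10 with colon Ova-veh replicate 2 left out and the second -1.01 with colon naive replicate 1 left out, each at an adjusted p of 0.0129 by exact permutation, and these 2 mice had the highest colon sums of their groups. With all mice kept, no contrast was shown to differ between the sites.

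Of the genera looked for, few were listed. Both sulfur-reducing genera (Desulfovibrio and Bilophila) were listed in lung and 1 of 2 in colon. Of 7 genera of Enterobacteriaceae, Escherichia was listed in lung and none in colon. Of Sutterella and Parasutterella 1 of 2 was listed at either site. None of 3 genera of Helicobacteraceae and Campylobacteraceae, which include common mouse gut colonists, was listed at either site. None of 14 genera known from airways or from laboratory reagents, such as Pseudomonas, Haemophilus, Ralstonia and Sphingomonas, was listed at either site. That list did not cover Halomonadaceae, the family of lung H. salaria, so reagent taxa are not shown to be absent.

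Proteobacteria were also a small part of the phyla whose members bear LPS or a related outer membrane glycolipid. Of the reads of Bacteroidetes, Proteobacteria, Verrucomicrobia and Deferribacteres together, lung Proteobacteria made up 5.19% ± 0.221 in Ova-res lungs, 5.54% ± 0.594 in Ova-veh lungs and 5.67% ± 0.358 in naive lungs (SD, n = 3 each). In colon no Verrucomicrobia row was listed, so the share there was of the other named phyla only and is not set against that of lung. Colon Proteobacteria made up 1.40% ± 0.140 of them in Ova-res colons, 1.24% ± 0.851 in Ova-veh colons and 1.10% ± 0.557 in naive colons (SD, n = 4, 4 and 5). The ranges of the groups overlapped at both sites. In lung the Ova-res and naive means lay more than 1 SD of either group apart, with ranges of 4.98 to 5.42% and 5.30 to 6.01%. The Ova-veh colon share was 0.905% without replicates 2 and 4, and the shares were not tested.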

How the data were processed

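Bacterial DNA was isolated from lung tissue (Zymo Quick-DNA kit) and from colon contents (Qiagen stool kit), and 16S libraries were prepared and classified into operational taxonomic units by the authors on the Nephele platform, whose settings left out some mice. Not given in the sources used here were the amplified region of the lung libraries, the pipeline version, the reference taxonomy, any filters and the read numbers. The authors deposited, for each site, a table with the fraction of each mouse's reads per taxon, rounded to 3 decimals. All sample columns were used, and samples were grouped by their labels.

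Fractions were multiplied to percent. Proteobacteria rows, their sum and class sums with over 1 row were all reported. These rows, the genus lists and the tests were chosen with earlier results of these data known. Sums and rows were tested by two-sided exact permutation of group means (Python 3.11.15, numpy 2.4.6, scipy 1.17.1, pandas 2.3.3; figures with matplotlib 3.10.9). All taxa with a mean of at least 0.01% were fitted with limma 3.58.1 (R 4.3.3) on log2(percent + 0.05), 3 groups in one fit. P-values were Benjamini-Hochberg adjusted over all phyla, classes or taxa of a table, with a threshold of 0.05. Correlations used 100000 resamples. The calculations were tested on simulated continuous values with no rounding and no zeros. That check does not cover rows that lie a few rounding steps above 0. P-values of group contrasts set a difference against the spread between mice, and they cannot separate cage from treatment. Same-numbered mice deviated together, with every pair's correlation over 0.1, in 3 of 6 contrasts (closing section). A block on the number was therefore tried in all, and it changed no limma call. For the sums the block flipped the signs of differences between same-numbered mice. With 3 pairs in lung or 4 in colon such a test cannot give a p under 0.05, so it could not have called a sum.
Alternatives comprised other scales, pseudocounts, filters and tests, a replicate block, single rows or mice left out, and, chosen after seeing the data, the class sums without each mouse and colon sums, Sutterella and shares without 2 Ova-veh mice.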

Additional observations from a re-analysis of the deposited data

Results flagged for a closer look

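Of 20 groups of colon values with 4 or 5 mice, 4 held a mouse far from the others by Dixon's gap rule. That rule picks about 1 in 20 groups by chance for continuous values, a rate that does not carry over to values in steps of 0.1%, where 1 mouse a step away from 3 equal ones is always picked, and the groups include sums of the same rows, so nothing is read from the number picked. The Desulfovibrio row was at 0.6% in Ova-veh replicate 2, with the other 3 mice at 0 or 0.1%. In Ova-res replicate 2 it was at 0, with the other 3 mice at 0.1%, a gap of 1 rounding step. The Desulfovibrionaceae row with no genus was at 0.1% in Ova-res replicate 2, with the other 3 mice at 0.2%, again 1 step. It was at 0.4% in naive replicate 1, with the other 4 mice at 0 or 0.1%. The lung groups of 3 mice were not looked at in this way.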

How the results depend on the processing

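No Proteobacteria sum passed the adjusted threshold in any contrast under another scale or test. Over the comparisons, 240 alternative values were counted as unchanged and 22 turned direction. Another 7 passed, or held more called taxa, where the reported value had not. The 240 include F ratios and counts of taxa, which have no direction, and Kruskal-Wallis entries that repeat the reported difference. Exact permutation tests between 2 lung groups could not have passed. The 240 are thus no measure of how stable the directions are. For the lung sum of Ova-veh against naive the difference was -0.1 points without the Desulfovibrio row and ranged from -0.1 to 0.133 points with each mouse left out, and for Ova-res against naive it was 0.00935 as a centred log2 ratio. For the colon sum of Ova-veh against naive it was -0.0722 as a log2 ratio to all other taxa, -0.04, -0.15 and -0.005 points without the RF32, Desulfovibrio and Sutterella rows, and -0.14 to 0.16 points with each mouse left out. The lung minus colon log2 ratio then ranged from -0.303 to 0.375 for Ova-veh against naive, -1.10 to -0.425 for Ova-res against Ova-veh and -1.01 to -0.548 for Ova-res against naive. The colon sum of Ova-res against naive without the Desulfovibrio C21 c20 row, the one highest in naive mice, was 0.46 points (exact permutation p = 0.00794, adjusted p = 0.0357). Counts of taxa called by limma were 0 to 2 in lung for Ova-res against Ova-veh (RF32 and Anaeroplasma, without Ova-res replicate 3), 0 to 1 for Ova-res against naive (RF32) and 0 to 1 in colon for Ova-res against Ova-veh (Sutterella, without Ova-veh replicate 1). On the percent scale the colon count was 1, a Bacteroidales row. Among single rows and classes, 21 values turned direction and 3 passed. Values reported as 0 could not be counted as turned, though some took either sign with single mice left out. On the log2 scale lung H. salaria ranged from -0.169 to 0.169 for Ova-res against Ova-veh. Lung Bilophila ranged from -0.246 to 0.246 for Ova-veh against naive. The colon Deltaproteobacteria sum ranged from -0.108 to 0.225 points for Ova-res against Ova-veh. With each mouse left out, the log2 change ranged from -0.278 to 0.0483 for lung H. salaria against naive in both other groups, -0.264 to 0.51 for colon RF32 and -1.10 to 0.132 for colon Desulfovibrio (both Ova-res against Ova-veh), and -0.528 to 0.407 for the colon row with no genus (Ova-veh against naive), which was 0.0298 as a centred log ratio. Sutterella of Ova-veh against naive was 0.015 points on the percent scale and ranged from -0.0933 to 0.0733. The lung Deltaproteobacteria sum ranged from -0.25 to 0.05 points for Ova-res against Ova-veh, -0.0167 to 0.283 for Ova-veh against naive and -0.0167 to 0.1 for Ova-res against naive. The colon one ranged from -0.28 to 0.075 for Ova-veh against naive and -0.125 to 0.075 for Ova-res against naive. Lung Gammaproteobacteria ranged from -0.133 to 0.0167 for Ova-res against Ova-veh. The cause of these turns was not tested.

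The labels give same-numbered samples no shared source. Their deviations from the group means correlated above 0.1 in every pair in 3 contrasts, which were lung Ova-res against naive (0.170 to 0.338), colon Ova-res against naive (0.135 to 0.547) and colon Ova-veh against naive (0.217 to 0.495), but not in the other 3 (-0.725 to 0.407). A sample correlated best with its own number in 6 of 18 lung and 14 of 24 colon comparisons. For the sums the replicate block compared same-numbered mice only, so colon naive replicate 5 was left out. The colon sum of Ova-veh against naive was then -0.025 points (exact sign-flip permutation p = 1). Leaving out naive replicate 5 without a block gave the same -0.025 points. With the block the colon sum of Ova-res against naive was 0.3 points (exact sign-flip permutation p = 0.375), and the other sums kept their direction. With a replicate block limma called 0 taxa in every contrast. Rounding, 3 to 5 mice a group and an unknown read depth limit all values: a row at 0.1% is 1 step above a listed 0.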
